A study of Mus musculus with 12 samples.

Results

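The PYHIN genes, called the Ifi200 family in the mouse, were followed in bone marrow macrophages (BMMs) in which the microRNA miR-182 was deleted or overexpressed. The 8 members were the rows named Ifi202b, Ifi203, Ifi204, Ifi205, Mnda, Mndal, Pyhin1 and Aim2, out of 24421 rows in each of 12 libraries. They were taken as a named family, and Ifi202b led the choice because its level over the 6 conditions separated some libraries from the others, so its levels across that separation are given below as a description with no test. The other 7 were picked with their levels in view as well, and their tests are to be read with that in mind.

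All mice were labelled strain C57BL/6 and carried LysMcre(+), a Cre recombinase driven by the lysozyme M (Lyz2) promoter in myeloid cells. WT was Mir182+/+LysMcre(+), the knockout (KO, Mir182ΔM/ΔM) was Mir182flox/floxLysMcre(+), Control was LysMcre(+) alone, and the transgenic line (mTg, Mir182mTg) was LSL-Mir182LysMcre(+), with Mir182 behind a stop cassette that Cre removes. Marrow was grown with M-CSF for 3 days (Basal), and WT and KO cells were also studied after 5 days of RANKL, the cytokine that drives macrophages towards osteoclasts. The labels give Basal cells no days beyond these 3, whereas the study's figure legend gives 5 days for cells with and without RANKL. On the labels alone, RANKL and days in culture cannot be told apart. Each of the 6 conditions (WT Basal, WT RANKL, KO Basal, KO RANKL, Control Basal and mTg Basal) had 2 libraries, and neither age nor sex was given for them in the labels.

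PYHIN proteins pair an N-terminal pyrin domain, which binds other pyrin domains, with a C-terminal HIN domain, which binds double-stranded DNA. AIM2 is the best known of them: it detects DNA in the cytosol of macrophages and assembles an inflammasome with the adaptor ASC (encoded by Pycard) and caspase-1. p204, the product of Ifi204, is known as a sensor that feeds into STING and type I interferon production, and p202, the product of Ifi202b, lacks a pyrin domain and restrains AIM2. Many Ifi200 genes are themselves interferon-induced, and the level of Ifi202b is known to differ between inbred mouse strains.

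The members lie in 1 cluster on chromosome 1. On GRCm38, the build to which the mm10 files correspond, the RefSeq gene order was Aim2, Pyhin1 (there called Ifi209), Ifi204, Mndal, Mnda (there Ifi211), Ifi203, Ifi202b and Ifi205. Aim2 began at base 173349547 and Ifi205 ended at base 174031755. Ifi202b occupied chr1:173962569-173982844 on the minus strand, between Ifi203 at chr1:173920400-173942866 and Ifi205 at chr1:174011998-174031755. All 8 are annotated as protein-coding, and 6 of the 8 were matched to RefSeq by their current symbol and 2 by an older one.

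These genes are copies of each other, which limits what a read count can tell apart. Of the pieces of 50 bases in the GENCODE vM21 transcripts of Mnda, 72.8% were also present in transcripts of another PYHIN gene of the cluster. The share was 33.4% for Pyhin1, 19.1% for Ifi204, 18.6% for Ifi205, 17.3% for Mndal and 3.87% for Ifi203. Ifi202b and Aim2 shared none (0%), so their counts are the least exposed to reads of a relative. GENCODE also gives Mndal a span of chr1:173849126-173942491, which covers Mnda and runs into Ifi203, so the counts of Mnda, Mndal and Ifi203 are uncertain at this locus.

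Promoter sequence was read from RefSeq windows (GRCm38.p6), of which the 250 bases before the annotated start were searched. A window was present for 7 of the 8 members, and Ifi204 had none. The interferon-stimulated response element core, GAAANNGAAA on either strand, was found in 5 of the members' 9 windows, against 2.98% of all 32851 windows. These windows belonged to 4 of the 7 members (Ifi203, Ifi205, Mnda and Mndal). These sites are shown because the genes that carry them include both members that separate the libraries as Ifi202b does and members that do not. Capitals mark the core, and each line gives 30 bases, 5′ to 3′ on the gene's minus strand.
Ifi203, chr1:173942508-173942537: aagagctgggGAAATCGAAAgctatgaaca
Mndal, chr1:173880204-173880233: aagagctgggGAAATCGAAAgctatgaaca
Mnda, chr1:173913064-173913093: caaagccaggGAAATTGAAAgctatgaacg
Ifi205, chr1:174031870-174031899: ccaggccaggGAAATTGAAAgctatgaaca
The sites of Ifi203 and Mndal were identical over all 30 bases, those of Mnda and Ifi205 were equal at 27 of 30, and those of Ifi203 and Ifi205 at 23 of 30. The core began 35 bases before the start in Ifi203, 36 in Mndal, 37 in Mnda and 134 in Ifi205. Ifi203 had 2 windows, and the window of its other start, further upstream (chr1:173942673-173942922), held no core. A second Mndal window, for another start, held a core on the opposite strand.

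The window of Ifi202b is given in full because no response element core was found in it. It lay at chr1:173982845-173983094 on the minus strand, and its capitals mark the only match to TTCNNNGAA, the gamma-activated site of interferon-responsive genes.
Ifi202b: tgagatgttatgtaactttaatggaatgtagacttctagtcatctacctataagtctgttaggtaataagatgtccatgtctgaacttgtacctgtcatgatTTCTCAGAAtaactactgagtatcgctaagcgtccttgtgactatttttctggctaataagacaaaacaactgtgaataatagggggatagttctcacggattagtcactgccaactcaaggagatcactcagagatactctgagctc
That motif began 148 bases before the start and was present in 7.02% of all windows, and in 1 of the members' 9 windows. The windows of Pyhin1 and Aim2 held neither motif. The window of Aim2 held GAGGAA, the core bound by the myeloid factor PU.1, on 2 occasions, and 23.3% of all windows held it. These are matches of letters in the reference genome, not shown binding, and no library was read for its own promoter sequence.

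The libraries held 24951280 to 33050619 reads on genes, so that 3 reads corresponded to 0.0908 to 0.120 CPM (counts divided by the library's total on genes and scaled to 1000000). The labels do not say that replicates came from separate mice or cultures. In every condition replicate 1 is labelled polyA RNA and replicate 2 total RNA, with different processing tools noted. Over the 8346 genes with at least 200 reads in every library, the variance between replicates was 6.69 times the counting variance (median), and 1.60 times once the shift shared by the 6 conditions was removed. The p-values below therefore measure only the spread between these libraries, which may be technical. The Mir182 row could not check the deletion, since it held 0 reads in 7 of the 8 WT and KO libraries and 1 read in the other, a KO Basal library. It also held 0 reads in both Control libraries and stood at 2.39 and 4.40 CPM in the mTg libraries. The summed CPM of 7 macrophage markers was 5683 to 8655 over the 12 libraries, as a check of the labelled cell type, and 3 of the 6 T and NK cell markers stayed under 3 reads in every library.

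The WT RANKL libraries stood apart from the WT Basal libraries that carry the same genotype label. Lyz2, the gene whose promoter drives the Cre, was at 44.0 and 39.8 CPM in WT Basal, 34.6 and 31.2 in KO Basal, and 24.0 and 22.5 in KO RANKL. In WT RANKL it was at 4117 and 4288 CPM, and in Control and mTg it ranged from 5783 to 7062 CPM. The LysMcre allele is a knock-in at Lyz2, and every library is labelled LysMcre(+). Of 3 other genes known to differ between mouse stocks, Wdfy1 separated the same libraries in the direction of Ifi202b (54.9 to 96.2 CPM against 17.5 to 34.5 CPM), Nnt ranged from 43.4 to 79.2 CPM with overlap, and Entpd4 was above 0 in only 2 libraries. The labels do not say whether the WT RANKL cells came from other mice than the WT Basal cells. Any difference in mouse origin cannot be told apart from RANKL in WT, and would enter every comparison with WT RANKL. No value for those comparisons exists without these libraries.

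Ifi202b was expressed in 3 conditions and nearly absent from the other 3. Its CPM was 112 and 93.4 in WT Basal, 101 and 82.1 in KO Basal, and 152 and 143 in KO RANKL. In WT RANKL it was 1.12 and 0.972 CPM, from 28 and 27 reads. No read was counted in either Control library, which allows up to 0.0958 and 0.113 CPM at 3 reads, and the mTg libraries held 3 reads and 0 reads. The lowest of the 6 high libraries (82.1 CPM) was far above the highest of the 6 low ones (1.12 CPM).

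Against WT RANKL, mean Ifi202b was 98.2-fold higher in WT Basal and 141-fold higher in KO RANKL. WT Basal was at least 905-fold higher than Control, taking 3 reads per Control library as the floor. Within the high conditions the order was KO RANKL (147 ± 6.96 CPM, SD, n = 2), WT Basal (103 ± 12.9) and KO Basal (91.6 ± 13.4), and the last of these overlapped. Control and WT Basal are both unstimulated, Cre-bearing macrophages without a changed Mir182 allele, and they come from separate experiments, so the experiment and the mice cannot be told apart for that difference.

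**Figure D1:**
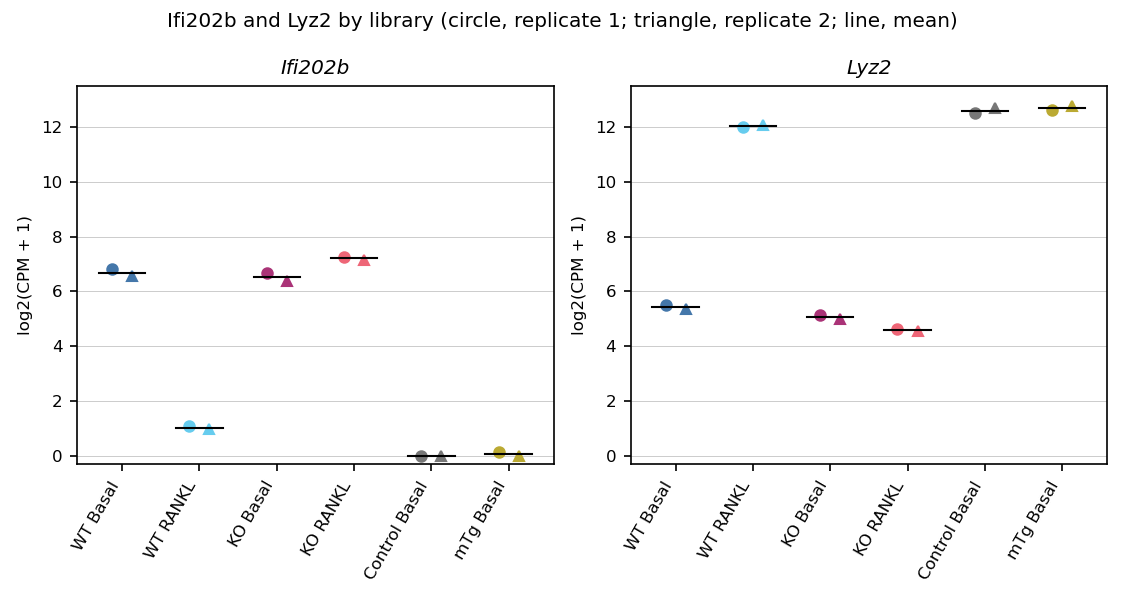
Level of Ifi202b (left) and Lyz2 (right), as log2(CPM + 1), in each of the 12 libraries by condition. Ifi202b was at 82.1 to 152 CPM where Lyz2 was at 22.5 to 44.0 CPM, and at 0 to 1.12 CPM where Lyz2 was at 4117 to 7062 CPM.

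Among the other members, Ifi203 and Ifi205, the neighbours of Ifi202b on either side, also placed all 6 libraries of WT Basal, KO Basal and KO RANKL above all 6 of WT RANKL, Control and mTg. Among the 11794 genes that reached 1 CPM in 2 or more libraries, 2.44% did so. The same 3 members did so without the WT RANKL libraries, as did 6.50% of all genes. Ifi203 was at 138 to 293 CPM in the first set and 40.4 to 71.0 CPM in the second. Ifi205 was at 2.44 to 27.4 CPM in the first set and 0.322 to 1.33 CPM in the second. Mndal missed the separation narrowly, with 72.8 CPM in the lowest library of the first set and 74.8 CPM in the highest of the second. It passed with CPM divided by TMM factors, where 3.88% of all genes did. Ifi204, Mnda, Pyhin1 and Aim2 overlapped between the sets. Since the choice of the members rested on this pattern, these counts are a description.

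Ifi203, known as p203, gave 183 and 138 CPM in WT Basal, 71.0 and 55.1 in WT RANKL, 193 and 154 in KO Basal, 293 and 238 in KO RANKL, 63.5 and 51.4 in Control, and 51.5 and 40.4 in mTg. Its 2 unstimulated conditions in the loss-of-function experiment overlapped, and KO RANKL lay above both. Ifi205, which encodes p205, was low: 5.63 and 2.44 CPM in WT Basal, 0.958 and 1.33 in WT RANKL, 7.77 and 2.54 in KO Basal, 27.4 and 17.2 in KO RANKL, 0.511 and 1.17 in Control, and 0.333 and 0.322 in mTg. Replicate 2 stood at 0.327 to 2.29 times replicate 1 in the 6 conditions, and the lowest library held 9 reads.

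Ifi204, the STING-linked sensor, had another order. Its CPM was 55.0 and 44.6 in WT Basal, 43.6 and 33.4 in WT RANKL, 166 and 123 in KO Basal, 342 and 269 in KO RANKL, 86.3 and 63.5 in Control, and 67.7 and 50.1 in mTg. The 4 KO libraries were the highest, and WT Basal overlapped mTg. Mnda, named after the human myeloid cell nuclear differentiation antigen, followed the same order of conditions at lower levels: 8.29 and 6.81 CPM in WT Basal, 6.19 and 3.96 in WT RANKL, 26.4 and 19.5 in KO Basal, 62.5 and 39.0 in KO RANKL, 12.004 and 8.20 in Control, and 10.4 and 7.48 in mTg. Its order is not independent of its relatives, since most of its transcript is shared with them.

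Mndal, the Mnda-like gene, was at 103 and 72.8 CPM in WT Basal, 70.4 and 47.9 in WT RANKL, 139.9 and 105 in KO Basal, 232 and 169 in KO RANKL, 74.8 and 50.5 in Control, and 62.8 and 44.1 in mTg. WT Basal overlapped Control, and the 2 KO conditions stood above both. Pyhin1 was lowest in WT Basal: 4.34 and 3.49 CPM there, 15.0 and 11.6 in WT RANKL, 36.8 and 32.3 in KO Basal, 130.4 and 128 in KO RANKL, 10.1 and 8.54 in Control, and 8.80 and 8.56 in mTg. WT Basal, which is high for Ifi202b, was thus lowest for Pyhin1, while KO RANKL was highest for both.

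Aim2 was nearly level. Its CPM was 37.6 and 31.8 in WT Basal, 44.0 and 37.4 in WT RANKL, 37.7 and 35.5 in KO Basal, 40.7 and 38.2 in KO RANKL, 42.5 and 37.2 in Control, and 47.7 and 39.5 in mTg. The highest condition mean was 1.26-fold the lowest, against 3.75-fold for Mndal, 5.78-fold for Ifi203, 7.93-fold for Ifi204, 10.01-fold for Mnda, 33.0-fold for Pyhin1 and 68.1-fold for Ifi205. The other 7 members all had their highest mean in KO RANKL, a description for which the share of all genes was not taken. Replicate 2 read lower than replicate 1 in 6 of 6 conditions for Ifi203, Ifi204, Mnda, Mndal, Pyhin1 and Aim2, by factors between 0.624 and 0.981, so part of the spread within each condition is shared between conditions.

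**Figure D2:**
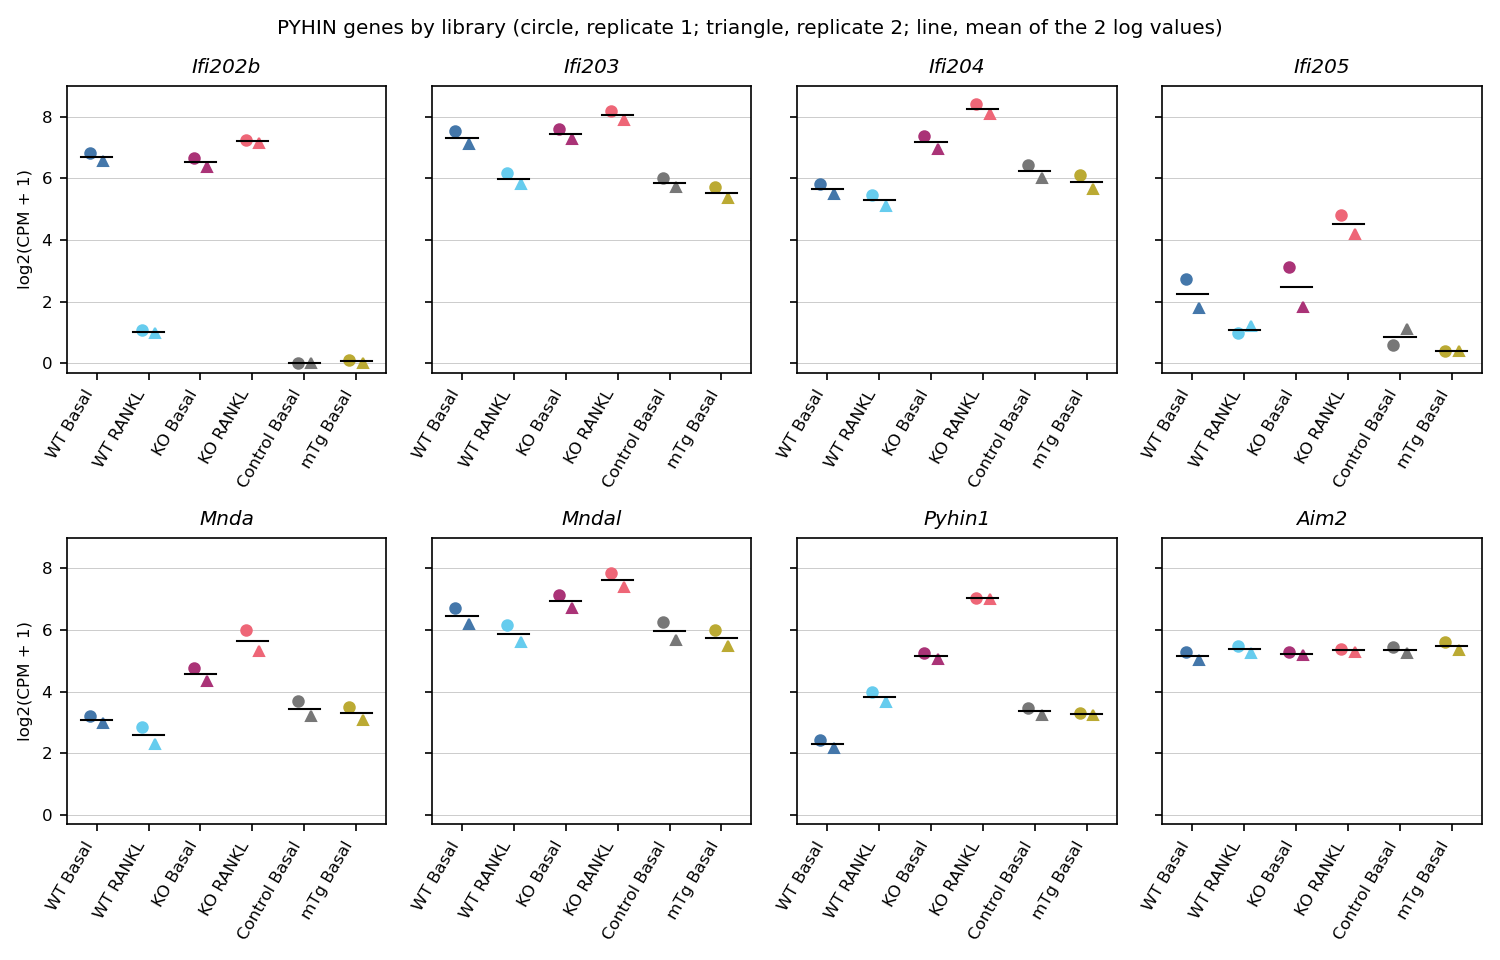
Level of each PYHIN gene as log2(CPM + 1) in the 12 libraries, grouped by condition. Ifi202b, Ifi203 and Ifi205 are low in WT RANKL, Control and mTg, the other members except Aim2 are highest in KO RANKL, and Aim2 stays between 31.8 and 47.7 CPM.

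Levels of the 8 members were compared with each other in the deposited RPKM (CPM per kilobase of transcript), which exist for replicate 1. The 8 members summed to 202 RPKM in WT Basal, 96.7 in WT RANKL, 286 in KO Basal, 520.5 in KO RANKL, 116 in Control and 100.3 in mTg. In WT Basal the highest member was Ifi202b, at 62.2 RPKM or 30.8% of the sum, followed by Mndal at 54.1 RPKM. In KO RANKL it was Ifi204, at 148.9 RPKM or 28.6%, followed by Mndal at 121.6 RPKM, with Ifi202b at 84.8 RPKM or 16.3%. Mndal led in WT RANKL (36.9 RPKM), in Control (39.2 RPKM) and in mTg (32.9 RPKM). Aim2, whose product p202 restrains, was at 14.8 RPKM beside 62.2 for Ifi202b in WT Basal, and at 16.8 RPKM beside 0 in Control. Each of these values is from 1 library.

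**Figure D3:**
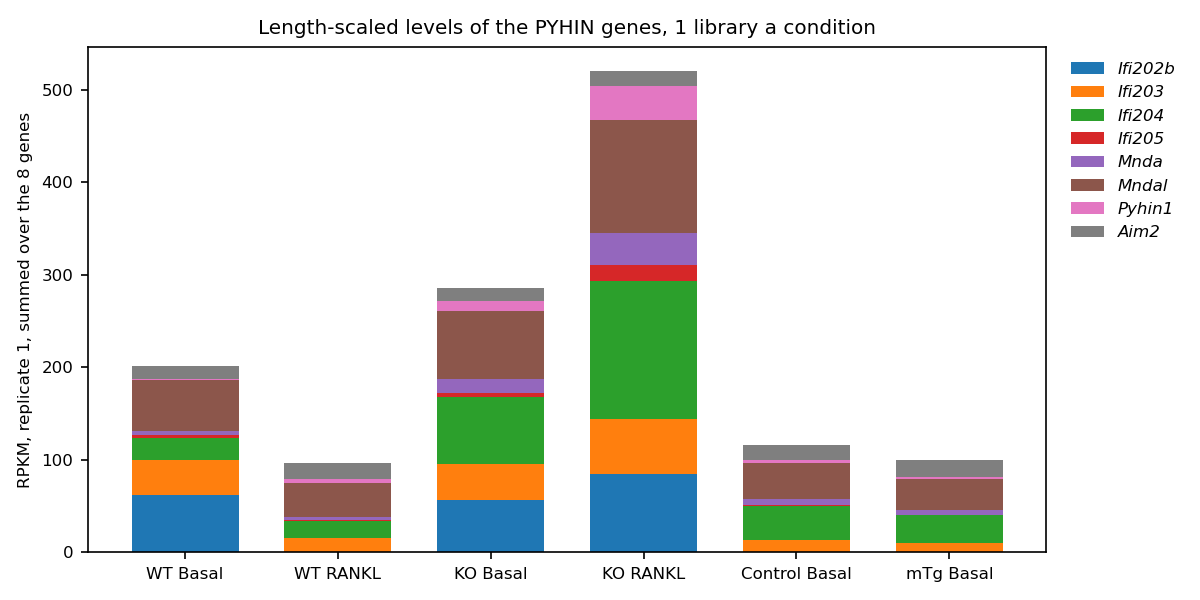
Stacked bars of the deposited RPKM of the 8 PYHIN genes in replicate 1 of each condition, starting at 0. The sum is highest in KO RANKL (520.5 RPKM), and the Ifi202b segment is missing or too thin to see in WT RANKL, Control and mTg.

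KO and WT macrophages were first compared without RANKL, where both conditions express Ifi202b and both are low in Lyz2. Pyhin1, Ifi204 and Mnda were higher in the KO. Pyhin1 was 2.86 ± 0.14 (SE) higher on the log2 scale (limma, adjusted p = 1.44e-04), Ifi204 1.51 ± 0.20 (adjusted p = 0.0101) and Mnda 1.48 ± 0.27 (adjusted p = 0.0331). For each of them, and also for Mndal, which was not called, both KO libraries lay above both WT libraries. The share of all genes was not taken for that. Thus 3 of the 8 members were called higher and none lower, while 2.71% of 11691 genes were called higher and 1.10% lower. The values that missed the threshold were 0.48 ± 0.26 for Mndal, 0.22 ± 0.47 for Ifi205, 0.12 ± 0.19 for Ifi203, 0.08 ± 0.11 for Aim2 and -0.16 ± 0.13 for Ifi202b. The 3 calls were also made in the fit that left out both WT RANKL libraries.

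With the replicate number as a block, 5 members were called higher (Ifi203 and Mndal in addition) and Ifi202b was called lower, at an adjusted p of 0.0356. In that fit 18.6% of all genes were called higher and 12.7% lower. The call of Mnda was lost whichever WT Basal or KO Basal library was left out. That of Ifi204 was lost without WT Basal replicate 2 or KO Basal replicate 1, and Pyhin1 kept its call throughout. With 1 WT Basal or KO Basal library left out, the log2 difference ran from 1.27 to 1.68 for Mnda and from 1.30 to 1.72 for Ifi204. With no filter on low values Mnda also missed the threshold (limma, adjusted p = 0.0609). In bulk RNA, more RNA per cell and more cells of a type cannot be told apart. Neutrophil markers summed to 79.3 to 87.1 CPM in WT Basal and 95.3 to 101 CPM in KO Basal, and the part of this in the PYHIN differences was not tested.

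Most of the family was higher in KO cells after RANKL than before it. Pyhin1 rose by 1.88 ± 0.14 on the log2 scale (adjusted p = 3.45e-05), Ifi205 by 2.03 ± 0.47 (adjusted p = 0.00871), Mnda by 1.09 ± 0.27 (adjusted p = 0.0117), Ifi204 by 1.08 ± 0.20 (adjusted p = 0.00293), Ifi202b by 0.69 ± 0.13 (adjusted p = 0.00293) and Ifi203 by 0.61 ± 0.19 (adjusted p = 0.0305). Both KO RANKL libraries lay above both KO Basal libraries for all 8 members, called or not. This does not set the called members apart, and the share of all genes was not taken for it. Mndal differed by 0.70 ± 0.26 (adjusted p = 0.0541) and Aim2 by 0.10 ± 0.11 (adjusted p = 0.46). In all, 6 of 8 members were called higher, against 30.4% of all genes.

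Both the block and the fit without the WT RANKL libraries called 7 of 8 members higher, adding Mndal, and 42.7% of all genes were called higher with the block. The share of all genes was not taken for the fit without the WT RANKL libraries. Leaving out KO RANKL replicate 1 left 3 calls, since Ifi203, Ifi205 and Mnda were then not called. Osteoclast markers summed to 150 to 182 CPM in KO Basal and 3237 to 3267 CPM in KO RANKL, and the part of that shift in the PYHIN values was not tested.

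In WT cells, where Ifi202b and Lyz2 moved in opposite directions between Basal and RANKL libraries, most members did not pass the test. Pyhin1 rose by 1.53 ± 0.14 (adjusted p = 7.99e-05) and Ifi203 fell by 1.33 ± 0.19 (adjusted p = 8.01e-04) on the log2 scale. The remaining values were -1.16 ± 0.47 for Ifi205, -0.57 ± 0.26 for Mndal, -0.51 ± 0.27 for Mnda, -0.37 ± 0.20 for Ifi204 and 0.22 ± 0.11 for Aim2, and none of them passed. So 1 of 7 members was called higher, against 40.6% of all genes, and 1 lower, against 22.0%.

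These calls depended on the scale. The median of all genes stood at 0.19 in this comparison and at -0.01 with TMM factors, and it moved from -0.14 to -0.003 for KO against WT after RANKL and from -0.15 to 0.01 for the interaction. With TMM factors 3 members were called lower (Ifi203, Ifi204 and Mndal), with edgeR on the recovered reads 4 (Ifi205 in addition), and with quantile normalization 5. Over all genes, 3679 of 12579 were called lower with edgeR and 3627 of 11691 with quantile normalization. The split of all calls in this comparison went from 4741 higher and 2571 lower to 3355 higher and 3571 lower with TMM factors. For KO against WT after RANKL it went from 1668 higher and 3607 lower to 2438 and 2347, and for the interaction from 870 higher and 2005 lower to 1237 and 1265. With the block, 2 members were called higher (Pyhin1 and Aim2) and 5 lower (Ifi203, Ifi204, Ifi205, Mnda and Mndal), where 52.8% of all genes were called higher and 29.0% lower. Osteoclast markers summed to 144 to 173 CPM in WT Basal and about 10610 to 10820 CPM in WT RANKL.

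After RANKL, KO exceeded WT for 6 of the 7 members tested, against 14.3% of all genes called higher. Ifi205 was 3.41 ± 0.47 higher on the log2 scale (adjusted p = 0.00111), Pyhin1 3.20 ± 0.14 (adjusted p = 7.19e-06), Mnda 3.08 ± 0.27 (adjusted p = 1.32e-04) and Ifi204 2.96 ± 0.20 (adjusted p = 3.76e-05). Ifi203 followed at 2.06 ± 0.19 (adjusted p = 1.81e-04) and Mndal at 1.75 ± 0.26 (adjusted p = 0.00156). On the linear scale these were 10.6-fold for Ifi205, 9.20-fold for Pyhin1, 8.44-fold for Mnda, 7.77-fold for Ifi204, 4.17-fold for Ifi203 and 3.37-fold for Mndal, from log2(CPM + 1). Ifi205 was near 1 CPM in WT RANKL, and edgeR on the recovered reads put it at 21.5-fold. Aim2 differed by -0.04 ± 0.11 (adjusted p = 0.802), and by 0.11 ± 0.11 with TMM factors. The same 6 were called with the block, where 23.4% of all genes were called higher and 49.7% lower.

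Lyz2 moved with this contrast too, at 4117 and 4288 CPM in WT RANKL and 24.0 and 22.5 CPM in KO RANKL. Genotype and any difference in mouse origin cannot be told apart in it for any member. Osteoclast markers summed to 3237 to 3267 CPM in KO RANKL and about 10610 to 10820 CPM in WT RANKL, and neutrophil markers to 5.59 to 5.81 CPM and 18.96 to 19.3 CPM. The part of these shifts in the PYHIN differences was not tested.

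**Figure D4:**
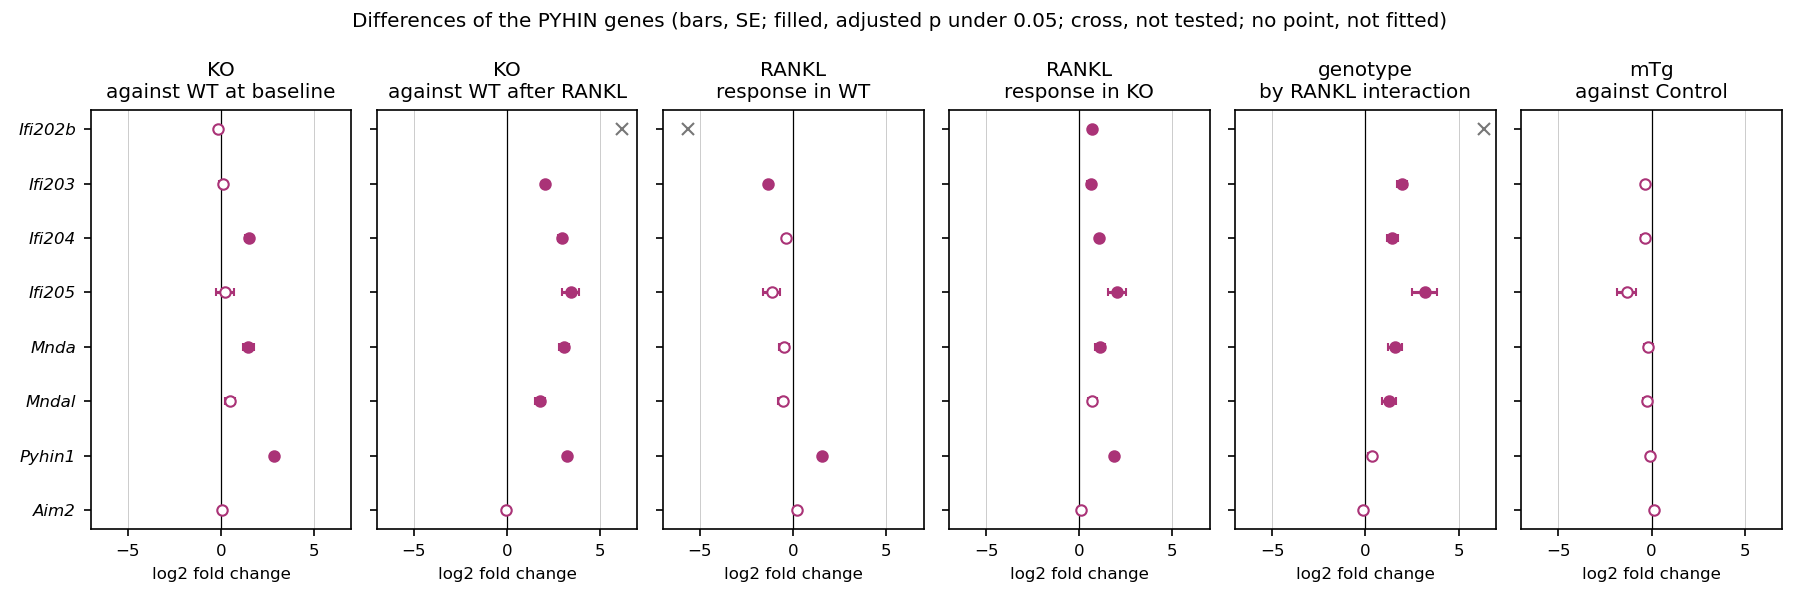
Differences of the 8 PYHIN genes on the log2 scale in 6 comparisons, with bars for the SE and filled points for an adjusted p under 0.05. Crosses give Ifi202b where it was not tested, at 6.18, -5.66 and 6.35, and Aim2 is unfilled in every panel.

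The interaction asked whether the RANKL response of KO cells differed from that of WT cells. It was positive for 5 of 7 members, against 7.44% of all genes called higher: Ifi205 at 3.19 ± 0.67 (adjusted p = 0.0132), Ifi203 at 1.94 ± 0.28 (adjusted p = 0.00247), Mnda at 1.60 ± 0.39 (adjusted p = 0.0225), Ifi204 at 1.45 ± 0.28 (adjusted p = 0.00982) and Mndal at 1.27 ± 0.37 (adjusted p = 0.045), all on the log2 scale. Pyhin1 rose in both genotypes, and its interaction of 0.34 ± 0.20 missed the threshold (adjusted p = 0.27). Aim2 had an interaction of -0.12 ± 0.16 (adjusted p = 0.641), and of 0.04 ± 0.15 with TMM factors. With the block, Pyhin1 was called as well (adjusted p = 0.00795), giving 6 of 7 against 16.1% of all genes. Without KO RANKL replicate 1 only 2 calls were left, and 3 were left without WT Basal replicate 1, WT RANKL replicate 2 or KO Basal replicate 2. For Ifi202b the same quantity was 6.35 on the log2 scale, and it was not tested.

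Overexpression of miR-182 was compared with Control in unstimulated cells by edgeR on the raw counts. None of the 7 members in the fit was called (0 of 7), where 0.0993% of 12081 genes were called higher and 0.157% lower. At an unadjusted p under 0.05 there were 1 of the 7 members, Ifi205, and 863 genes in all. DESeq2 called 0 of 7, and so did limma on log2(CPM + 1). The differences ran from -1.33 ± 0.52 for Ifi205 through -0.11 ± 0.13 for Pyhin1 to 0.12 ± 0.13 for Aim2, the only one above 0. With the block, Ifi203 (-0.33 ± 0.04, adjusted p = 8.68e-05), Ifi204 (-0.36 ± 0.04, adjusted p = 1.32e-05), Mndal (-0.24 ± 0.04, adjusted p = 0.00114) and Ifi205 (-1.30 ± 0.41, adjusted p = 0.0424) were called lower in mTg, 4 of 7 against 8.15% of all genes. Ifi202b could not be fitted in this comparison, since its reads were 0 and 0 in Control and 3 and 0 in mTg.

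The files also list 4 other genes of the cluster. Pydc3 (Ifi208 in RefSeq) was at 0.428 and 0.240 CPM in WT Basal, 2.87 and 1.30 in WT RANKL, 5.03 and 3.73 in KO Basal, and 49.2 and 36.1 in KO RANKL. Pydc4 (Ifi213) was at 0.0611 and 0.0401 CPM in WT Basal, 0.958 and 0.432 in WT RANKL, 2.81 and 1.98 in KO Basal, and 25.7 and 23.3 in KO RANKL. Among the WT and KO conditions both had the order of Pyhin1, with WT Basal lowest and KO RANKL highest. AI607873 (Ifi207) had the highest CPM of the 4, not scaled for length. It was at 282 and 193 CPM in WT Basal, 405 and 325 in WT RANKL, 438 and 343 in KO Basal and 637 and 508 in KO RANKL. BC094916 was at 0.459 and 0.281 CPM in WT Basal and 4.11 and 4.41 in KO RANKL. At baseline 2 of 4 (Pydc3 and Pydc4) were called higher in KO than in WT, against 2.71% of all genes. With the block all 4 were (limma, adjusted p = 0.016 for BC094916), against 18.6% of all genes. After RANKL all 4 were called higher in KO than in WT, against 14.3% of all genes. Pydc4 reached 1 CPM only in KO libraries, and BC094916 only in KO RANKL libraries. Both passed the filter on low values only through these libraries, so their direction against WT was largely set by it. Their part in these counts is a description. The differences after RANKL ran from 0.65 ± 0.22 for AI607873 to 3.93 ± 0.18 for Pydc4 on the log2 scale. Low levels in WT shrink these values through the added 1 CPM: edgeR on the recovered reads put Pydc4 at 5.31 ± 0.28 and BC094916 at 3.78 ± 0.27, against 1.98 ± 0.11 for BC094916 by limma. With RANKL in WT, 3 of the 4 were called higher and 0 lower, against 40.6% and 22.0% of all genes. TMM factors and edgeR left 2 of them higher, and quantile normalization gave 1 higher and 1 lower. Over all genes, 3355 of 11688 were called higher with TMM factors and 3536 of 12579 with edgeR. With quantile normalization 3405 of 11691 were higher and 3627 lower.

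The genes nearest to Ifi202b over the 12 libraries were found by the root mean square difference of centred log2(CPM + 1) values. Outside the family they were Hal (1.23), the liver and skin enzyme histidine ammonia-lyase, Ifi44 (1.38) and Ifit2 (1.71), both interferon-induced, Gm4951 (1.63), and Rab6b (1.89), a small GTPase of the Golgi. Hal was at 170 and 172 CPM in WT Basal, 0.758 and 0.972 in WT RANKL, 242 and 257 in KO Basal, 29.7 and 31.8 in KO RANKL, 1.12 and 0.945 in Control, and 1.03 and 0.895 in mTg. It shared the split of libraries with Ifi202b, but not the order within the high conditions. Ifi44 was at 66.4 and 62.9 CPM in WT Basal, 2.83 and 2.56 in WT RANKL, 12.7 and 11.4 in KO Basal, 226 and 206 in KO RANKL, and 0.756 to 1.31 in Control and mTg. Of the members, Ifi205 (2.17) was 22nd and Ifi203 (2.34) 45th in nearness among 11793 genes. Mndal (2.69) was 165th, Mnda (2.71) 175th, Ifi204 (2.76) 200th and Pyhin1 (2.85) 281st, and Aim2 (3.32) was 5871st.

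AIM2 and the DNA sensors work with partners that were followed as lists. Of 9 inflammasome genes, 8 could be tested in the loss-of-function experiment: after RANKL 3 were higher and 1 lower in KO than in WT, against 14.3% and 30.9% of all genes, and at baseline 1 was higher, against 2.71%. With the block these became 4 higher and 2 lower after RANKL, against 23.4% and 49.7% of all genes. At baseline 2 were higher with the block, against 18.6%. Highest in mean CPM were Gsdmd, the pore former of pyroptosis, Nek7, a kinase that binds NLRP3, and Casp8, a caspase of the AIM2 complex. Gsdmd rose with RANKL in both genotypes, by 2.33 ± 0.10 in WT (adjusted p = 2.09e-06) and 2.16 ± 0.10 in KO (adjusted p = 3.91e-06), and its interaction was -0.17 ± 0.14 (adjusted p = 0.455), or 8.05e-04 ± 0.15 with TMM factors. With the block that interaction was called (adjusted p = 0.00317). Nek7 was at -0.01 ± 0.11 in KO against WT after RANKL (adjusted p = 0.967) and at 0.15 ± 0.10 with TMM factors, and Casp8 at 0.21 ± 0.07 (adjusted p = 0.0422). With TMM factors the list gave 4 higher and 1 lower after RANKL, where 2438 of 11688 genes were higher and 2347 lower. Gsdmd, Nek7 and Aim2 were again not called, while Casp8 was at 0.37 ± 0.07 (limma, adjusted p = 0.00424).

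Of 9 tested genes of the cytosolic DNA sensing and STING pathway, 5 were higher and 3 lower in KO after RANKL. Of all genes, 14.3% were called higher and 30.9% lower. The block added 1 lower, where 23.4% of all genes were called higher and 49.7% lower. Samhd1, which depletes nucleotides, was 0.70 ± 0.08 higher (adjusted p = 4.19e-04), and Ikbke, a kinase upstream of IRF3, 0.70 ± 0.07 higher (adjusted p = 1.97e-04). Tbk1, its relative, was at -0.18 ± 0.06 (adjusted p = 0.0465), or at -0.03 ± 0.06 with TMM factors (adjusted p = 0.712). In KO cells RANKL gave 5 higher and 2 lower genes of this list, where 30.4% of all genes were called higher and 26.4% lower, and the interaction 4 higher and 2 lower, where 7.44% and 17.1% were. With the block RANKL in KO gave 5 higher and 3 lower, against 42.7% and 36.3% of all genes. The interaction with the block gave 5 higher and 3 lower, against 16.1% and 42.8%.

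The genes of the type I interferon response, the program in which many Ifi200 genes are induced, were followed as a list of 18. All 18 genes were higher in KO than in WT after RANKL (median log2 difference 3.64, against -0.14 over all genes), 16 were higher and 1 lower at baseline (median 1.31; 17 and 1 with the block), and all 18 rose with RANKL in KO (median 1.45), or 17 with TMM factors. Over all genes 14.3% were called higher in KO after RANKL and 30.4% with RANKL in KO. At baseline 2.71% were higher and 1.10% lower, or 18.6% and 12.7% with the block. With RANKL in WT, 1 rose and 13 fell (median -0.61), or 0 and 14 with TMM factors and 3 and 15 with the block. There 40.6% of all genes were called higher and 22.0% lower, or 52.8% and 29.0% with the block. With TMM factors 3310 of 11688 genes were higher with RANKL in KO, and 3355 higher and 3571 lower in WT. The 7 tested members had a median of 2.96 in KO against WT after RANKL, and the 8 members a median of 0.35 at baseline and 0.89 with RANKL in KO. Irf7, which drives interferon transcription, was at 57.9 and 57.4 CPM in WT Basal, 47.6 and 49.7 in WT RANKL, 147 and 156 in KO Basal, and 1297 and 1355 in KO RANKL. Oasl2, an antiviral OAS-like protein, was 3.78 ± 0.11 higher in KO after RANKL (adjusted p = 1.33e-06) and 1.25 ± 0.11 higher at baseline (adjusted p = 0.00239). In mTg against Control 0 of these 18 were called by edgeR, where 0.0993% of all genes were called higher and 0.157% lower. With the block 12 were called lower, against 8.15% of all genes.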

How the data were processed

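RNA of 12 BMM libraries was sequenced. The extraction protocol and the study's methods give poly-A selection for all of them, whereas the molecule label of replicate 2 reads total RNA. The deposited values were CPM for the 8 WT and KO libraries, raw counts for the 4 Control and mTg libraries, and RPKM for replicate 1 only, as the authors made them with TopHat, Cufflinks, HISAT2, HTSeq and edgeR on mm10 (per the labels and the study's methods). The CPM were whole multiples of 1 read for 100% of values (tolerance 0.05 reads), and 27 rows whose names had become dates kept no gene name. The labels call replicate 1 polyA and replicate 2 total RNA and name different tools for each, so replicate numbers pair the samples. Deviations of same-numbered samples correlated at r = 0.690 to 0.754 over 6 pairs of conditions, and 0.744 in the gain-of-function experiment.

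For WT and KO, limma 3.58.1 (R 4.3.3) was fitted to log2(CPM + 1), keeping 11691 genes that reached 1 CPM in 2 or more of the 8 samples, with a trend in the prior variance. Counts of Control and mTg were fitted with edgeR 4.0.16 (quasi-likelihood test, TMM factors), with DESeq2 1.42.0 as an alternative. P-values were adjusted by Benjamini-Hochberg over all genes, calls were made at 0.05, and no test was run across experiments. On simulated data 100% of 200 genes changed 2-fold were recovered in both (11448 genes for limma, 12072 for edgeR), with 3.38% and 4.76% false calls. The simulated replicates had no shift shared between conditions, unlike these libraries, and no low-level gene was changed. The simulation checks that the code runs as meant and does not give the power for the members. The members and lists were chosen with earlier results of these data known. The named genes were the members, the other cluster genes present, 3 marker genes and Lyz2, and the 5 genes nearest to Ifi202b. The 3 genes of each list with the highest mean CPM were named as well. 1 gene of this rule is not reported here. Sequences are from RefSeq.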

Additional observations from a re-analysis of the deposited data

Results flagged for a closer look

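For 5 members the RANKL response differed between KO and WT by the interaction test (limma, adjusted over all genes). The difference on the log2 scale was 1.94 for Ifi203 (adjusted p = 0.00247), 1.45 for Ifi204 (adjusted p = 0.00982), 3.19 for Ifi205 (adjusted p = 0.0132), 1.60 for Mnda (adjusted p = 0.0225) and 1.27 for Mndal (adjusted p = 0.045). Both WT RANKL libraries enter every one of these values, and their Lyz2 level differed from that of the other WT and KO libraries. For Ifi202b both WT libraries were lower after RANKL and both KO libraries higher, a difference of 6.35 on the log2 scale that was not tested, since the gene was chosen for this pattern.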

How the results depend on the processing

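Counts of members called are given here as higher and lower calls together. Calls over all genes moved with the scaling and with the block as well, as given with the comparisons above. For the fits with 1 library left out, no share of all genes was taken. KO against WT after RANKL gave 6 of 7 under every alternative run, except 5 of 6 with at least 1 CPM in every sample. At baseline the replicate block gave 6 calls in place of 3, with or without the WT RANKL libraries, and no filter on low values gave 2. Calls at baseline were also lost when 1 WT Basal or KO Basal library was left out. RANKL in WT gave 2, and 4 with TMM factors, 6 with quantile normalization, 5 with edgeR and 7 with the block, and 2 to 3 when 1 library was left out. RANKL in KO gave 6, and 3 to 7 when 1 library was left out. The interaction gave 5, 3 with at least 1 CPM in every sample, which leaves fewer members to test, and 2 to 5 when 1 library was left out. In mTg against Control the block gave 4 calls in place of 0, and no other alternative gave any. The block changed no other call of a member than those given with each comparison. For members by comparison, 622 of 716 alternative values stayed the same. Where a member was tested, this meant the same direction and side of the threshold. For the untested Ifi202b values it meant a move of less than the SE of the main fit, and 12 of these moved by more. Another 18 values changed direction, none of them called in either fit. For Aim2 the log2 difference after RANKL became 0.1108 with TMM factors, 0.0764 with quantile normalization and 0.1103 with edgeR, and its interaction 0.0445, 0.0161 and 0.0485. When 1 library was left out, Aim2 ranged from -0.1548 to 0.0762 after RANKL, from -0.0363 to 0.1984 at baseline and from -0.0294 to 0.2509 in mTg, Ifi203 from -0.0902 to 0.3223 and Ifi205 from -0.4335 to 0.8764 at baseline, and in mTg Mnda from -0.4519 to 0.1148, Mndal from -0.5224 to 0.0705 and Pyhin1 from -0.2161 to 0.0108. The number of members highest in KO RANKL was 7 throughout, and the share of all genes was not taken for it. Under these settings 3 or 4 members separated the libraries, against 2.44% to 6.5% of all genes. Of the 5 genes nearest to Ifi202b, 4 or 5 were shared. Low counts limit Ifi205, Mnda and Pyhin1, with 2 libraries a condition throughout.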
